A study of Mus musculus with 8 samples.

Results

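The TNF superfamily, its TRAF adaptors and the NF-kB proteins were examined in brain endothelial cells (ECs) of postnatal day 9 (P9) mouse pups, with or without endothelial expression of mutant MAP2K1. Members were all genes of the deposited normalized counts whose symbol begins with Tnfrsf, Tnfsf, Tnfaip, Traf and a digit, Nfkb or Ikbk, or is *Tnf*, *Rel*, *Rela* or *Relb*. This rule gave 62 of the 16889 genes in that set, comprising 12 ligands, 19 receptors, 10 TRAF proteins and their interactors, 7 TNF-alpha-induced proteins, 5 NF-kB subunits, 6 IkB proteins and 3 IKK subunits. Of the 66 matching genes in the count files, the other 4 (*Tnfsf11*, *Tnfsf13os*, *Tnfrsf17* and *Tnfaip8l3*) were not in the normalized set, had group means of at most 7.37 normalized counts and were not tested.

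The 4 mutant pups were *R26GT-Map2k1-GFP/+;Tg-Cdh5CreER+/-* and are labelled Map2k1 K57N. They carry a *Map2k1* cDNA encoding the constitutively active K57N form, with GFP, in the *Rosa* locus behind a stop cassette that Cre removes, and a tamoxifen-inducible Cre driven by the promoter of endothelial *Cdh5*. The 4 control pups are labelled wild type and came from the same litters, and it is not settled in the sources whether they carry the Cre transgene, since the study also describes its control as a Cre-positive pup. Effects of Cre itself and of the mutant protein then cannot be told apart. The study also reports that the recombined allele was expressed far above endogenous *Map2k1*. No pups expressing wild-type MAP2K1 from *Rosa* were compared, so effects of the K57N change and of overexpression cannot be told apart either. At P9 the mutant pups were growth retarded, and their brains had vascular malformations and hemorrhage. In both groups the sample descriptions of replicates 1 and 2 share a numeric prefix, and replicates 3 and 4 have a prefix each; what these prefixes stand for is not stated. All pups of a litter received tamoxifen at P1, and the ECs were taken from whole dissociated brain with beads against CD31. Recombination reaches only some of the ECs, so each mutant library mixes mutant and unrecombined cells, and each value is an average over that mixture.

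Ligands of the TNF superfamily are trimers, mostly held on the cell surface, that cluster receptors of the matching family. TNF receptors recruit TRAF adaptors or, through a death domain, TRADD and FADD, and the resulting ubiquitin scaffolds activate the IKK complex. IKK marks IkB proteins for degradation, which lets the NF-kB dimers enter the nucleus, where they induce adhesion molecules and chemokines in ECs as well as their own inhibitors *Nfkbia* and *Tnfaip3*. A slower, non-canonical branch runs from some of these receptors through *Traf2*, *Traf3*, *Map3k14* and *Chuk* to *Nfkb2* and *Relb*.

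The 8 libraries held 24833373 to 34196955 counts. *Map2k1* (chromosome 9, 64185770 to 64253631), whose reads include those of the transgene, had 18734, 12692, 12707 and 14342 normalized counts in mutant libraries 1 to 4 and 1640.4, 1762, 1535 and 1506 in wild-type libraries 1 to 4, so every library matched its label. Summed over 10 endothelial markers, the libraries had 3076 to 3713 RPKM in mutant and 3128 to 3957 in wild type, with overlapping groups. Markers of some other cells, and genes induced by tissue dissociation, moved with genotype. The 7 oligodendrocyte-lineage markers summed to 5.33 to 10.6 RPKM in mutant and 17.6 to 45.6 in wild type, the 7 red cell markers to 109.7 to 359 against 669 to 1163, and 12 genes induced by tissue dissociation to 1714 to 2953 against 3781 to 4950. These 12 include *Fos* and *Jun*, whose products the study places downstream of MAP2K1 and ERK. Effects of handling and of the mutant protein on them cannot be told apart. Neuron markers summed to 4.01 to 5.97 against 6.72 to 18.5 RPKM, and astrocyte markers to 196 to 238 against 112 to 134. Nearly all of the astrocyte sum was *Gja1*, a gap junction gene that ECs also express (211 RPKM in mutant and 121 in wild type on average), and the median log2 fold change of the 6 astrocyte markers was -0.50. Microglia and macrophage markers ran from 104 to 381 in mutant and from 111 to 376 in wild type and overlapped, as did those of lymphocytes, neutrophils, platelets, pericytes and fibroblasts. Of these genes 7 of 7 oligodendrocyte-lineage, 7 of 7 red cell, 10 of 12 dissociation-induced and 4 of 6 neuron markers passed as lower, and of the 6 astrocyte markers *Gja1* was higher and 1 was lower. How far these cells contribute to the differences described here was not tested. In RNA from a bulk cell preparation, fewer cells of a type and less RNA per cell cannot be told apart.

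Normalized counts are given on a common library scale, and RPKM divides them by gene length as well, so that levels can be compared between genes. A gene passed the test at an adjusted p under 0.05 and was called differentially expressed when its log2 fold change, mutant over wild type, was also beyond 1 in either direction. Of the 62 members, 19 were higher and 11 lower in mutant ECs, and 32 did not pass. Across all 16887 genes tested the background was 21.5% higher and 22.9% lower, or 44.4% in either direction, against 48.4% of the members. Differentially expressed members numbered 9, of which 7 were higher and 2 lower, a share of 14.5% beside 14% of all genes tested (5.9% higher and 8.05% lower). The members as a whole were therefore called about as often as any other genes, and their median log2 fold change was 0.14 against -0.02 over all genes. In 17 members the mutant range lay wholly above the wild-type range and in 9 wholly below it, or 26 without overlap, where 42.5% of all genes tested showed no overlap (20.6% above and 21.9% below).

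By family, receptors had 7 higher and 5 lower of 19, ligands 3 higher and 1 lower of 12, and TRAF proteins and interactors 3 higher and 2 lower of 10. Of the NF-kB subunits 3 were higher and 1 lower of 5, but none was differentially expressed. TNF-alpha-induced proteins had 2 higher of 7, IkB proteins 1 lower of 6, and IKK subunits 1 higher and 1 lower of 3. As shares, 63.2% of receptors, 33.3% of ligands, 50% of TRAF proteins and interactors and 80% of NF-kB subunits passed. For TNF-alpha-induced proteins, IkB proteins and IKK subunits the shares were 28.6%, 16.7% and 66.7%, beside 44.4% of all genes tested. Shares of families this small are coarse. The differentially expressed members were the receptors *Tnfrsf9*, *Tnfrsf26* and *Tnfrsf23* (higher), the receptors *Tnfrsf19* and *Tnfrsf11b* (lower), the ligands *Tnfsf4* and *Tnfsf18*, the adaptor *Traf1* and *Tnfaip2*. They made up 26.3% of receptors, 16.7% of ligands, 10% of TRAF proteins and interactors and 14.3% of TNF-alpha-induced proteins, beside 14% of all genes tested.

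**Figure D1:**
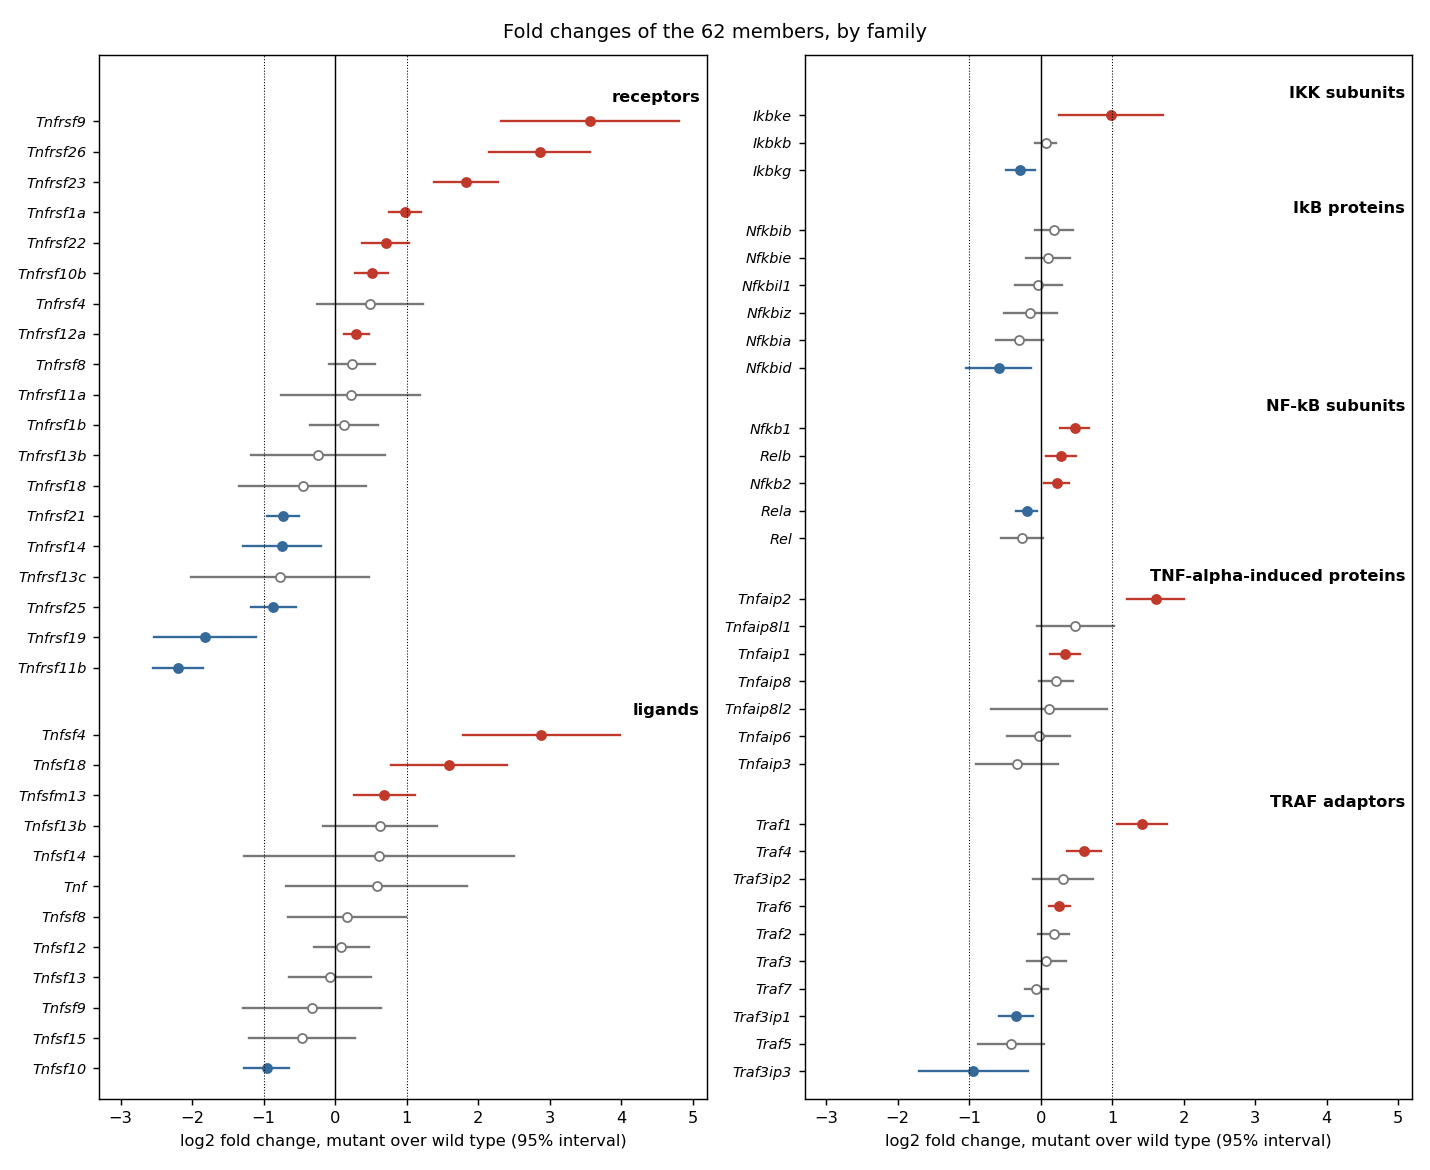
Log2 fold change, mutant over wild type, of each of the 62 members with its 95% interval, grouped by family (red, higher and passed; blue, lower and passed; open grey, did not pass; dotted lines at log2 fold changes of -1 and 1). The 9 members past both limits lie among the receptors, ligands, TRAF adaptors and TNF-alpha-induced proteins, while all NF-kB, IkB and IKK genes lie between the dotted lines.

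The families differed in level. In wild-type ECs the member of highest level was *Nfkbia*, the main inhibitor of NF-kB, at 498 RPKM, followed by the TWEAK receptor *Tnfrsf12a* (127 RPKM), *Nfkbiz* (94.7 RPKM) and *Rela* (78.6 RPKM). These are levels after dissociation of the brain, and the part of dissociation in them was not tested. In wild type, 22 members were over 10 RPKM, 20 lay between 1 and 10, and 20 were under 1 RPKM. Of the 20 low members 8 were ligands and 7 were receptors, and none was an NF-kB subunit or an IkB protein. *Tnfrsf9* (0.497), *Tnfsf4* (0.0882), *Tnfsf18* (0.21), *Tnfrsf26* (0.768) and *Traf1* (0.32 RPKM), all higher in mutant, were under 1 RPKM in wild type.

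Among ligands, the widest difference was that of *Tnfsf4* (chromosome 1, 161395409 to 161418410, plus strand), which encodes OX40L, a costimulator of T cells that ECs can also carry. *Tnfsf4* had 34.2, 28.8, 26.6 and 52.2 normalized counts in mutant libraries 1 to 4 and 0.92, 2.82, 6.05 and 9.49 in wild-type libraries 1 to 4. The groups did not overlap, and the wild-type values rested on few reads. The difference was 7.36-fold (log2 fold change 2.88, standard error 0.50, adjusted p = 0.00102), and its level in mutant ECs was still only 0.648 RPKM. *Tnfsf18*, which lies close by on chromosome 1 (161494655 to 161505290), encodes GITRL, another costimulator. Its counts were 21.5, 27.6, 46.5 and 59.2 in mutant and 10.1, 10.3, 17.3 and 13.7 in wild type, again with no overlap (3.01-fold, log2 fold change 1.59, standard error 0.37, adjusted p = 0.0055). Both genes were thus higher, at low counts.

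*Tnfsf10*, which encodes the death ligand TRAIL, was the only ligand that was lower. Its normalized counts were 382, 590.5, 495 and 433 in mutant and 1035, 981, 763 and 918 in wild type. The groups were separate, and the mutant mean was 1.94-fold below that of wild type (log2 fold change -0.96, standard error 0.14, adjusted p = 0.000422). *Tnfsfm13*, a read-through transcript of *Tnfsf12* and *Tnfsf13*, was higher (log2 fold change 0.69, adjusted p = 0.0144). It shares 78.1% of its exon bases with other genes, mostly these 2, neither of which passed (log2 fold changes 0.088 and -0.074), so its reads cannot be assigned with certainty. The other 8 ligands did not pass, with log2 fold changes from -0.47 (*Tnfsf15*) to 0.63 (*Tnfsf13b*).

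*Tnf* itself, the founding cytokine, was not distinguishable between groups. It had 181, 374, 1171 and 866 normalized counts in the mutant and 281, 501, 792 and 157 in the wild-type libraries. The spread within each group exceeded the difference between them (648 ± 453 against 433 ± 279, SD, n = 4; log2 fold change 0.58, 95% interval -0.68 to 1.85, adjusted p = 0.434). Mutant libraries 3 and 4 and wild-type library 3 were highest, and these were also the 3 libraries with the most microglia and macrophage markers, at 381, 316 and 376 summed RPKM against 104 to 154 in the other 5. *Tnfsf14*, which encodes LIGHT, followed the same libraries, with 6.33, 12.2, 73.1 and 54.8 in mutant and 7.37, 17.9, 65.7 and 4.22 in wild type. So did *Tnfrsf11a*, the RANK receptor of macrophages and their osteoclast relatives (54.5, 84, 184 and 152 in mutant and 67.2, 60.1, 194 and 88.6 in wild type). *Tnfsf14* and *Tnfrsf11a* were singled out after their values were seen. None of the 15 microglia and macrophage markers passed, and the part of these cells in the values of *Tnf*, *Tnfsf14* and *Tnfrsf11a* was not tested.

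**Figure D2:**
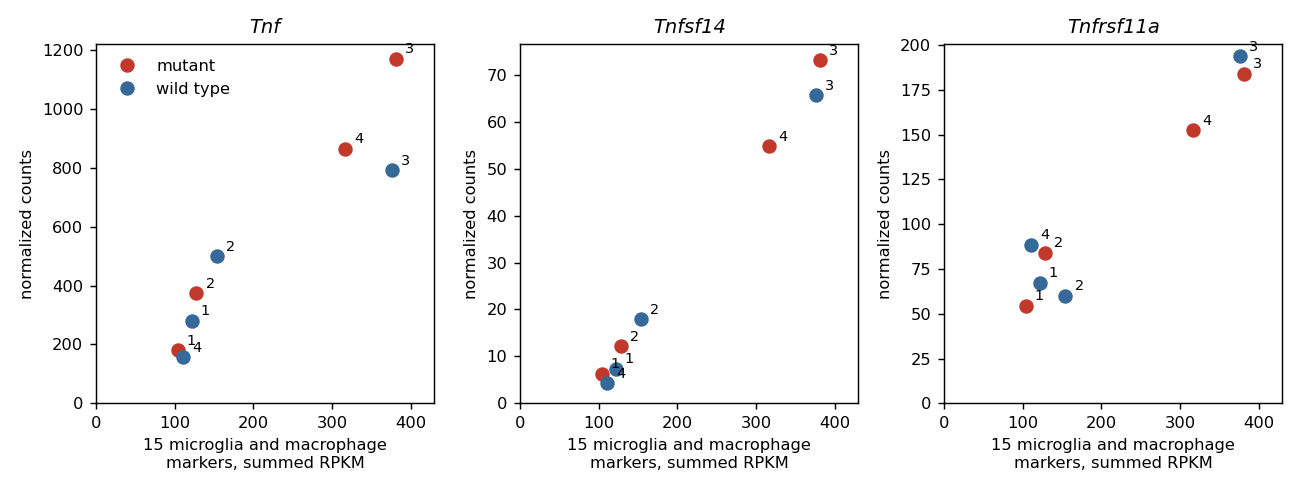
Normalized counts of *Tnf*, *Tnfsf14* and *Tnfrsf11a* in each library against the summed RPKM of 15 microglia and macrophage markers in the same library (red, mutant; blue, wild type; numbers are replicates). Mutant libraries 3 and 4 and wild-type library 3 stand to the upper right in each panel, at 316 summed RPKM of markers or more.

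The receptor furthest from wild type was *Tnfrsf9* (chromosome 4, 150914562 to 150946102, plus strand), which encodes 4-1BB (CD137), a costimulatory receptor of activated lymphocytes that signals through TRAF1 and TRAF2 and is inducible on ECs. *Tnfrsf9* had 942, 357, 256 and 337 normalized counts in mutant libraries 1 to 4 and 7.37, 52.6, 36.3 and 64.3 in wild-type libraries 1 to 4. The lowest mutant library was well above the highest wild-type library, and mutant library 1 stood far above the other 3. The means were 473 ± 316 and 40.2 ± 24.7 (SD, n = 4), a 11.8-fold difference (log2 fold change 3.56, standard error 0.56, adjusted p = 0.000613). Leaving out any 1 library took the log2 fold change no lower than 3.01 and did not end the call. Its ligand *Tnfsf9* did not pass (log2 fold change -0.33, 95% interval -1.29 to 0.64).

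The start of *Tnfrsf9* is shown with those of *Tnfaip2*, *Nfkb2* and *Nfkbia* because each carries a sequence motif of the pathway, in members that were higher and in one that did not pass. The NF-kB consensus, which has 10 letters with several alternatives, was searched on both strands in the 250 bases before each RefSeq start (GRCm38.p6) and was found in 12 of the 49 members with such an entry. By promoter, 22.6% of the 62 member promoters held it, against 7.25% of all 32851 promoters. The AP-1 motif TGANTCA was found in 10 of the 49 members, or 19.4% of their promoters against 6.75% of all. Known NF-kB targets such as *Nfkbia* and *Tnfaip3* are members by name, and a match is a description of the letters only. *Tnfrsf9* has 2 overlapping NF-kB matches that begin 43 and 42 bases before the start and an AP-1 match 15 bases before it, whereas its other annotated start had neither. *Tnfaip2* has its NF-kB match 24 bases before the start. In both genes part of the 250 bases (81 and 192) is exon in the gene model used for the counts. Only 30 bases around the matches are shown, at chr4:150927946-150927975 and chr12:111442627-111442656 on the plus strand. That gene model of *Tnfaip2* begins at 111442469, so its 30 bases and their match are exon there, although they precede the RefSeq start. Whether the 30 bases of *Tnfrsf9* are exon was not examined. *Nfkb2* (chr19:46304487-46304736, plus strand) has 3 matches, beginning 39, 38 and 11 bases before the first of its starts. *Nfkbia* (chr12:55492648-55492897, minus strand) has its match at 29 bases. Capitals mark the NF-kB matches, and each sequence is written 5′ to 3′ on the strand of the gene.
Tnfrsf9: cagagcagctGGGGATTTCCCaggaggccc
Tnfaip2: gactattttaGGAGGGCCCCtccagggtcg
Nfkb2: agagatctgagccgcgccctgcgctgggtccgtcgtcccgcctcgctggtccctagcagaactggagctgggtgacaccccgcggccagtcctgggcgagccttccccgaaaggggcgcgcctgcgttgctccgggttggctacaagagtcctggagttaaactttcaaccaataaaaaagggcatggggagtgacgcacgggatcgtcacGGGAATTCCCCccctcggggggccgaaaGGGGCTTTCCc
Nfkbia: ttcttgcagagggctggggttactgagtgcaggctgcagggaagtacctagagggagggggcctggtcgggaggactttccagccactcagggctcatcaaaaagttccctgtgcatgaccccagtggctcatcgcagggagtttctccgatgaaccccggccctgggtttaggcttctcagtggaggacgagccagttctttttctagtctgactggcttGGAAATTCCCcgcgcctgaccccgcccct
Of the 12 members with an NF-kB match, *Tnfrsf9*, *Tnfaip2* and *Nfkb2* were higher, *Tnfrsf25* and *Nfkbid* were lower, and *Nfkbia*, *Nfkbie*, *Rel*, *Tnfaip3*, *Tnfaip8l1*, *Tnfrsf8* and *Traf3* did not pass. The motif thus occurred in members of each class.

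A cluster of 3 receptor genes on chromosome 7 was higher as a group. *Tnfrsf26*, *Tnfrsf22* and *Tnfrsf23* lie side by side on the minus strand between 143607659 and 143685872. *Tnfrsf22* and *Tnfrsf23* encode decoy receptors that bind TRAIL without a death domain, and *Tnfrsf26* encodes a related receptor of little known function. *Tnfrsf26* had 577, 383, 356 and 799.9 normalized counts in mutant and 65.4, 52.6, 60.5 and 115 in wild type, a 7.25-fold difference with no overlap (log2 fold change 2.86, standard error 0.32, adjusted p = 7.91e-05). *Tnfrsf23* had 1047, 772, 740.2 and 1443 in mutant and 247, 275, 289.6 and 314 in wild type (3.56-fold, log2 fold change 1.83, standard error 0.20, adjusted p = 7.71e-05). *Tnfrsf22*, which lies between them, had 598, 620.3, 577 and 843 in mutant and 434, 390.1, 329 and 467 in wild type and was only 1.63-fold higher (log2 fold change 0.71, standard error 0.15, adjusted p = 0.00331). The 95% intervals of *Tnfrsf22* (0.38 to 1.04) and of *Tnfrsf26* (2.15 to 3.56) were apart. All 3 genes were higher in mutant, with mutant library 4 the highest library for each. *Tnfrsf22* and *Tnfrsf23* share 12.6% and 13.1% of their 75-base exon stretches with each other, so some of their reads cannot be assigned with certainty, whereas *Tnfrsf26* shares none with either.

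The genes around the cluster did not all move with it. Within 200 kb on either side, 11 other genes were tested. Over all genes tested in the genome, 21.5% were higher and 22.9% lower. *Cars*, next to *Tnfrsf26*, was higher (log2 fold change 0.90, adjusted p = 0.000567), as were *Osbpl5*, next to *Tnfrsf23* (log2 fold change 0.56, adjusted p = 0.00773), and *Nap1l4* (log2 fold change 0.19, adjusted p = 0.045). Farther out, *Kcnq1*, *Cdkn1c*, *Gm44732*, *Slc22a18*, *Mrgpre*, *Nadsyn1* and *Dhcr7* were lower, with log2 fold changes from -1.49 to -0.40, and *Phlda2* did not pass. The higher genes therefore formed a contiguous run of 6, from *Nap1l4* to *Osbpl5*, among the genes tested. How often such runs occur elsewhere in the genome was not examined.

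**Figure D3:**
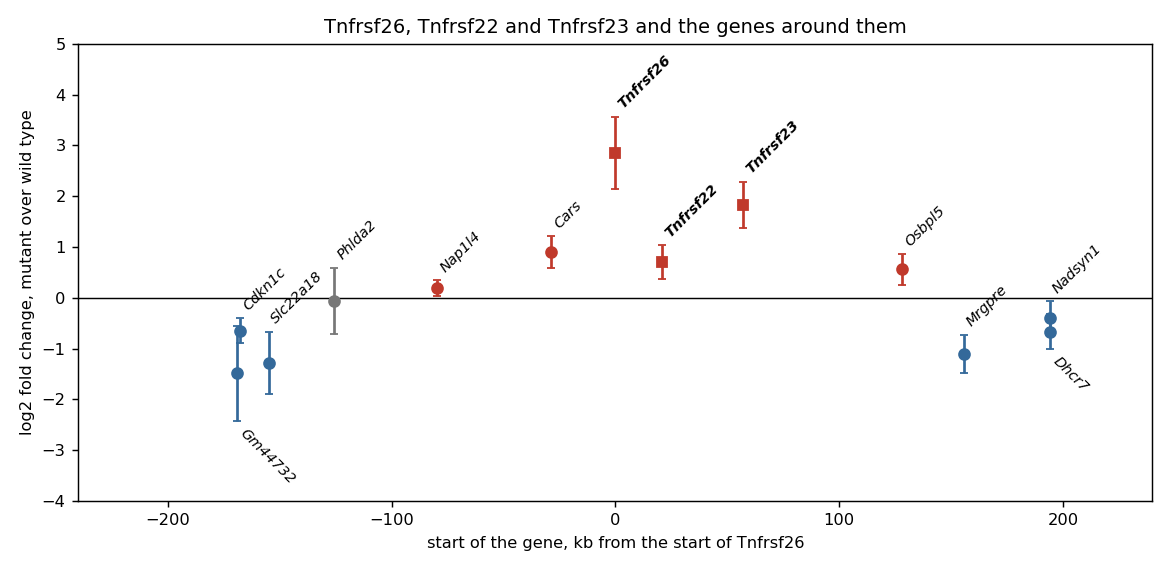
Log2 fold change with its 95% interval of *Tnfrsf26*, *Tnfrsf22* and *Tnfrsf23* (squares) and of the neighbouring genes tested (circles), against the distance of each gene's start from that of *Tnfrsf26* in kb along chromosome 7 (red, higher; blue, lower; grey, did not pass). The 6 red genes form a contiguous run with lower genes farther out on both sides, and *Kcnq1*, whose start lies beyond the left edge, is not drawn.

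TNF binds the receptors encoded by *Tnfrsf1a* and *Tnfrsf1b*. *Tnfrsf1a* passed the test and *Tnfrsf1b* did not, although a difference between the genes was not tested. *Tnfrsf1a*, which encodes TNFR1, the death domain receptor, had 5992, 4557, 4535 and 5543 normalized counts in mutant and 2462, 2590.3, 2766 and 2653 in wild type. No mutant library fell within the wild-type range, and the difference was 1.97-fold (log2 fold change 0.98, standard error 0.099, adjusted p = 4.36e-05), just under the limit for differential expression. *Tnfrsf1b*, which encodes TNFR2, had 1822, 1962, 2392 and 3386 in mutant and 1795, 1682, 2771 and 2554 in wild type, and the groups overlapped (log2 fold change 0.12, 95% interval -0.35 to 0.59, adjusted p = 0.672). The level of *Tnfrsf1a* was 67.1 RPKM in mutant and 34 in wild type, that of *Tnfrsf1b* 21.1 and 19.4 RPKM.

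The remaining higher receptors were abundant and changed less. *Tnfrsf10b*, the signalling receptor for TRAIL, rose from 25.7 to 36.6 RPKM (log2 fold change 0.51, adjusted p = 0.00263), and *Tnfrsf12a*, the receptor for TWEAK, from 127 to 155 RPKM (log2 fold change 0.30, adjusted p = 0.0125). Neither had overlapping groups.

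Among the lower receptors, *Tnfrsf11b* (chromosome 15, 54250619 to 54278484, minus strand) had the smallest p of all members. It encodes osteoprotegerin, a secreted decoy for the ligands RANKL and TRAIL. *Tnfrsf11b* had 192, 228, 280.4 and 181 normalized counts in mutant and 943, 956, 912 and 1241 in wild type. Every mutant library was below every wild-type library by a wide margin, and the means were 220.4 ± 44.6 and 1013 ± 153 (SD, n = 4), 4.6-fold lower in mutant (log2 fold change -2.20, standard error 0.16, adjusted p = 5.78e-06).

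*Tnfrsf19* (chromosome 14, 60963834 to 61046855, minus strand) encodes TROY, a receptor of the Wnt-responsive brain endothelium and of neural progenitors. It had 1237, 2475, 3023 and 975 normalized counts in mutant and 7990.4, 7639, 5452 and 6175 in wild type. The groups did not overlap, but the mutant libraries were spread widely, with libraries 1 and 4 well below libraries 2 and 3. The mutant mean was 3.54-fold below the wild-type mean (log2 fold change -1.82, standard error 0.32, adjusted p = 0.00115), a level of 13.6 against 48.1 RPKM. Within label prefixes the log2 difference was -2.16 between replicates 1 and 2 of each genotype, -0.85 between replicates 3 and -2.66 between replicates 4.

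Further receptors were lower without reaching the limit for differential expression. *Tnfrsf25*, the death receptor DR3, had a log2 fold change of -0.86 (adjusted p = 0.000736), *Tnfrsf21*, the death receptor DR6, of -0.74 (adjusted p = 0.000258), and *Tnfrsf14*, the herpesvirus entry mediator, of -0.74 (adjusted p = 0.0325). The groups were separate for each, for *Tnfrsf14* only narrowly and at low counts (24.1, 19.9, 21.1 and 34 in mutant and 41.5, 34.8, 48.4 and 42.2 in wild type). *Tnfrsf14* lost its call without mutant replicate 1, 2 or 3, without wild-type replicate 1, 3 or 4 and without a filter on low counts. The 7 receptors that did not pass had log2 fold changes from -0.77 (*Tnfrsf13c*) to 0.48 (*Tnfrsf4*). The oligodendrocyte-lineage and neuron markers were lower in the same libraries as these receptors, and their part in the lower values was not tested.

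**Figure D4:**
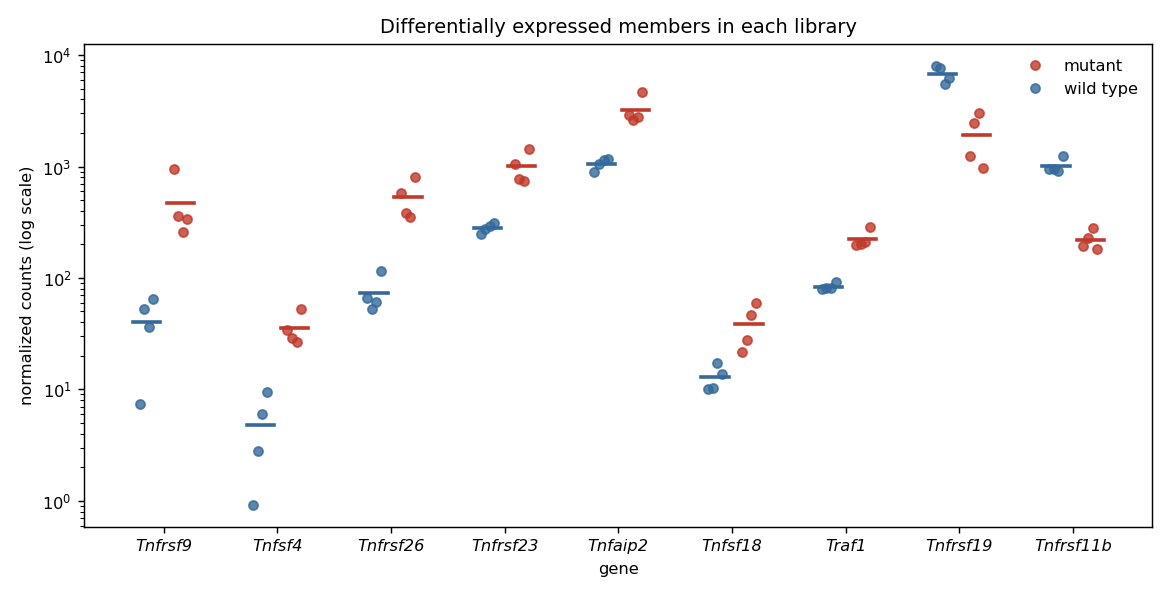
Normalized counts, on a log axis, of the 9 differentially expressed members in each of the 8 libraries (points; red, mutant; blue, wild type), with the group mean as a bar. For every gene the 4 mutant points lie on one side of the 4 wild-type points, above them for 7 genes and below them for *Tnfrsf19* and *Tnfrsf11b*.

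Ligands and receptors were also compared as 12 textbook pairs, assembled with these results known. Both partners passed in 1 pair, that of TRAIL, where the ligand *Tnfsf10* was lower and the receptor *Tnfrsf10b* higher. In 5 pairs only the receptor passed, which was higher for *Tnfrsf1a*, *Tnfrsf9* and *Tnfrsf12a* and lower for *Tnfrsf14* and *Tnfrsf25*. In 2 pairs only the ligand passed, with *Tnfsf4* and *Tnfsf18* higher while their receptors *Tnfrsf4* and *Tnfrsf18* did not pass (0.48 and -0.45 on the log2 scale). In 10 of the 12 pairs the wild-type level of the receptor, in RPKM, was above that of the ligand. The genes of the TRAIL system changed in different directions, since the ligand and the soluble decoy *Tnfrsf11b* were lower, and the signalling receptor *Tnfrsf10b* and the membrane decoys *Tnfrsf22* and *Tnfrsf23* were higher.

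*Traf1* (chromosome 2, 34941750 to 34961772, minus strand) was the only differentially expressed member of the TRAF family. It encodes an inducible adaptor without a RING domain that binds TRAF2 and the cellular inhibitors of apoptosis. *Traf1* had 198, 201, 209 and 286 normalized counts in mutant and 80.1, 81.8, 81.3 and 91.7 in wild type. The groups were clearly apart, with little spread in wild type (223 ± 41.7 against 83.7 ± 5.39, SD, n = 4; 2.67-fold, log2 fold change 1.42, standard error 0.16, adjusted p = 8.35e-05).

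*Traf4* and *Traf6* were higher by smaller amounts. *Traf4* had 1752, 1449.6, 1414 and 1225 normalized counts in mutant and 988, 988, 975 and 877 in wild type (log2 fold change 0.61, standard error 0.11, adjusted p = 0.00104). *Traf6*, the E3 ligase that serves Toll-like and interleukin-1 receptors as well as CD40 and RANK, had 1636, 1526, 1463 and 1626 in mutant and 1232, 1351, 1317 and 1326 in wild type (log2 fold change 0.26, standard error 0.066, adjusted p = 0.00958). Both had separate groups. *Traf2*, the adaptor shared by most TNF receptors, had 557, 489.8, 542 and 645 in mutant and 483, 489.7, 482 and 518 in wild type and did not pass (log2 fold change 0.18, adjusted p = 0.161). *Traf3*, *Traf5* and *Traf7* did not pass either (log2 fold changes 0.082, -0.41 and -0.059). Of the 3 TRAF3-interacting proteins, *Traf3ip1*, a component of cilia, was lower (log2 fold change -0.35, adjusted p = 0.0231), *Traf3ip3* was lower at low counts with overlapping groups (log2 fold change -0.94, adjusted p = 0.0454), and *Traf3ip2* did not pass. Leaving out mutant replicate 2 or wild-type replicate 3 left 0 lower calls in this family, and leaving out any of the other 6 libraries left 1. Without mutant replicate 4 both *Traf3ip1* and *Traf3ip3* lost their calls, and the 1 lower call was *Traf5*.

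Of the TNF-alpha-induced proteins, *Tnfaip2* (chromosome 12, 111442469 to 111455018, plus strand) was differentially expressed. It encodes M-Sec, which takes part in forming membrane nanotubes. *Tnfaip2* had 2883, 2639, 2775 and 4679 normalized counts in mutant and 887, 1042, 1148 and 1173 in wild type. Mutant library 4 was highest, and the lowest mutant library had more than any wild-type library (3.06-fold, log2 fold change 1.61, standard error 0.18, adjusted p = 8.02e-05). *Tnfaip1*, an adaptor of a cullin ubiquitin ligase, had 11680.5, 10779.9, 8914 and 9997 in mutant and 8444, 8496, 7334 and 8335 in wild type and was slightly higher, with no overlap (log2 fold change 0.34, standard error 0.093, adjusted p = 0.0127). *Tnfaip8l1* had 1695, 1612, 1121 and 893 in mutant and 1113, 1252, 810.1 and 625 in wild type, with overlap, and did not pass (log2 fold change 0.48, adjusted p = 0.132). Within the label prefixes of replicates 1 and 2, of replicate 3 and of replicate 4 its log2 differences were nonetheless alike, at 0.49, 0.47 and 0.51, and it passed with the prefix as a block (log2 fold change 0.49, adjusted p = 0.000342).

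*Tnfaip3* encodes A20, the ubiquitin-editing enzyme that ends NF-kB signalling and is itself a target of NF-kB. It had 8946, 13276, 15362 and 8873 normalized counts in mutant and 16828, 20766, 11729.7 and 9165 in wild type. The groups overlapped and it did not pass (log2 fold change -0.33, 95% interval -0.90 to 0.24, adjusted p = 0.321). Between the genotypes the log2 differences were -0.78, 0.39 and -0.047 within the prefixes of replicates 1 and 2, of replicate 3 and of replicate 4, so the sign was not the same in all 3. *Tnfaip3* was described because it is a feedback gene of the pathway, after its values were seen.

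The NF-kB subunits were all well expressed and changed little. *Nfkb1*, the p105 precursor of p50, had 14126, 12574, 12979.7 and 13456 normalized counts in mutant and 8092, 9549, 10179.5 and 10414 in wild type. The ranges of the groups were separate (1.39-fold, log2 fold change 0.47, standard error 0.089, adjusted p = 0.00172). *Relb*, the partner of p52 in the non-canonical branch, had 2166, 2068, 2006 and 2700.1 in mutant and 1778, 1887, 1808 and 1855 in wild type (log2 fold change 0.29, standard error 0.093, adjusted p = 0.0289), also without overlap. *Nfkb2*, the p100 precursor of p52, was higher with overlapping groups (log2 fold change 0.22, adjusted p = 0.038).

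*Rela*, which encodes the main activating subunit p65, was lower by a small amount. It had 5841, 5615, 5511 and 5232 normalized counts in mutant and 6365, 6731, 6145 and 6116 in wild type. The ranges were separate but close (1.14-fold lower, log2 fold change -0.19, standard error 0.066, adjusted p = 0.036). *Rel* did not pass (log2 fold change -0.26, adjusted p = 0.134). Of the 4 subunits that passed, only *Nfkb1* kept its call whichever library was left out, and without wild-type replicate 1, 2 or 4 it was the only higher subunit. *Relb* lost it without any 1 of the 4 wild-type libraries (highest adjusted p = 0.0564), and *Rela* lost it without any library except mutant replicate 1 and wild-type replicate 4 (highest adjusted p = 0.112).

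None of the IkB proteins was higher. *Nfkbia*, which encodes IkB-alpha, had 17762, 20497, 21130.2 and 16303 normalized counts in mutant and 26935, 28265, 19062 and 19029 in wild type. Its ranges overlapped and it did not pass (log2 fold change -0.30, 95% interval -0.63 to 0.027, adjusted p = 0.123), and the log2 differences within the same 3 prefixes were -0.53, 0.15 and -0.22. *Nfkbid*, a nuclear IkB protein, had 1979, 2271, 2736 and 1502 in mutant and 3492, 4226, 2732 and 2309 in wild type and was lower, although the groups overlapped (log2 fold change -0.59, standard error 0.21, adjusted p = 0.0403). Between the replicates 3 alone the difference was 0.0023, and leaving out mutant replicate 1, 2 or 4 or wild-type replicate 1 or 2 ended the call (highest adjusted p = 0.118). *Nfkbib* had 817, 792, 1034 and 971 in mutant and 743, 814, 932 and 682 in wild type and did not pass (log2 fold change 0.19, adjusted p = 0.229), nor did *Nfkbie*, *Nfkbil1* and *Nfkbiz* (log2 fold changes 0.11, -0.035 and -0.14). The 12 dissociation-induced genes, several of them immediate early genes, were lower in the same mutant libraries, 10 of them past the test, and their part in the values of *Nfkbia*, *Nfkbid* and *Tnfaip3* was not tested.

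The kinases upstream of the IkB proteins gave a mixed picture. *Ikbkb*, the catalytic IKK-beta, had 3702, 3908, 3506 and 3433 normalized counts in mutant and 3502, 3406, 3315 and 3642 in wild type and did not pass (log2 fold change 0.069, adjusted p = 0.417). *Chuk*, which encodes its partner IKK-alpha and lies outside the symbol rule, did not pass either (log2 fold change -0.079, adjusted p = 0.443). *Ikbkg*, the regulatory subunit NEMO on the X chromosome, had 517, 492, 509 and 565 in mutant and 689, 661, 568 and 622 in wild type and was slightly lower (log2 fold change -0.29, standard error 0.091, adjusted p = 0.0266). *Ikbke*, an inducible IKK-related kinase of the interferon response, had 237, 275, 432 and 526 in mutant and 104, 145, 283 and 213 in wild type and was higher, with overlapping groups (1.98-fold, log2 fold change 0.98, standard error 0.33, adjusted p = 0.0319). Both calls rested on few libraries. That of *Ikbke* was lost without mutant replicate 3 or 4 or wild-type replicate 1 or 2 (highest adjusted p = 0.0884), and that of *Ikbkg* without mutant replicate 1, 2 or 3 or wild-type replicate 1 or 2 (highest adjusted p = 0.0977).

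Genes of the same pathway whose symbols fall outside the rule were counted from lists of known pathway genes. Of 8 further TNF receptors, 1 was higher and 2 lower, or 37.5% beside 44.4% of all genes tested. *Eda2r*, the X-linked receptor for ectodysplasin A2 and a family member by sequence, had 875, 608, 812 and 1752 normalized counts in mutant and 28.6, 34.8, 45 and 31.6 in wild type. The groups were far apart, and the fold change was larger than that of any member (28.8-fold, log2 fold change 4.85, standard error 0.35, adjusted p = 6.35e-06). *Relt* (log2 fold change -0.71, adjusted p = 0.00433) and *Cd40*, the costimulatory receptor of antigen-presenting cells and ECs (log2 fold change -0.51, adjusted p = 0.00215), were lower. Of 6 further ligands 2 had enough counts to be tested, and neither passed, although 1 did without mutant replicate 3.

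Of 28 genes of the receptor complexes and upstream kinases, 7 were higher and 5 lower, and none was differentially expressed. That is 42.9% passing, close to the 44.4% of all genes tested. The higher genes of smallest p included *Bcl10*, the adaptor of CARD-dependent NF-kB activation (log2 fold change 0.60, adjusted p = 0.000169), *Tbk1*, a kinase related to IKK (log2 fold change 0.70, adjusted p = 0.000878), and *Ube2n*, which builds lysine-linked ubiquitin chains with TRAF6 (log2 fold change 0.30, adjusted p = 0.00168). Lower were, among others, *Card10*, the partner of BCL10 in non-immune cells (log2 fold change -0.98, adjusted p = 1.94e-05), *Tab1* (log2 fold change -0.70, adjusted p = 0.000896) and *Irak1* (log2 fold change -0.38, adjusted p = 0.00342). Partners in the CARD10 and BCL10 complex thus differed in direction. *Map3k14*, the kinase NIK of the non-canonical branch, named after its value was seen, did not pass (log2 fold change -0.16, adjusted p = 0.363). Of 13 tested genes of ubiquitin editing and feedback, 5 were higher and 3 lower, or 61.5% passing beside the same 44.4%. The higher ones included the deubiquitinase *Otud7b* (log2 fold change 0.65, adjusted p = 9.04e-05), *N4bp1* (log2 fold change 0.69, adjusted p = 0.000407) and *Ndfip1*, an activator of Nedd4-type ubiquitin ligases (log2 fold change 0.62, adjusted p = 0.000271). The lower ones were *Rnf31* (log2 fold change -0.44, adjusted p = 0.00934) and *Rbck1* (log2 fold change -0.35, adjusted p = 0.0349), both of the complex that forms linear ubiquitin chains, and *Bcl3* (log2 fold change -0.37, adjusted p = 0.0182), an atypical IkB protein. Leaving out mutant replicate 2 or wild-type replicate 3 reduced the higher genes of this list to 3, and leaving out mutant replicate 4 or wild-type replicate 2 reduced the lower genes to 1.

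Of 26 tested genes known as NF-kB targets in ECs, 10 were higher and 3 lower, and 7 were differentially expressed, all higher. The share that passed was 50% beside 44.4% of all genes tested, and the share differentially expressed 26.9% beside 14%. The selectins *Sele* and *Selp*, which capture leukocytes on activated endothelium, were both higher. *Sele* had 7031, 9227, 7229.6 and 7220.2 normalized counts in mutant and 2098, 3033, 1341 and 2099.5 in wild type (3.58-fold, log2 fold change 1.84, standard error 0.21, adjusted p = 8.54e-05). *Selp* had 5714, 4048, 3590.4 and 4722 in mutant and 1358, 1957, 1547 and 2722 in wild type (2.38-fold, log2 fold change 1.25, standard error 0.21, adjusted p = 0.000924). In neither gene did the groups overlap.

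*Ptgs2*, the inducible cyclooxygenase, had 24213, 24678, 22796 and 31612 normalized counts in mutant and 6829, 8692, 7757 and 9865 in wild type (3.12-fold, log2 fold change 1.64, standard error 0.14, adjusted p = 1.41e-05). The granulocyte factor *Csf3* had 1729.6, 1879.8, 2236 and 2714 in mutant and 548, 775, 819 and 787 in wild type (2.92-fold, log2 fold change 1.55, standard error 0.16, adjusted p = 5.46e-05), and *Lcn2*, an iron-sequestering acute phase protein, 574, 734, 573 and 722 in mutant and 121, 147, 136 and 180.3 in wild type (4.47-fold, log2 fold change 2.16, standard error 0.15, adjusted p = 5.08e-06). All of these had separate groups, unlike the chemokines. *Ccl2* had 241, 323, 684 and 868 in mutant and 100.4, 197, 287 and 131 in wild type (log2 fold change 1.56, standard error 0.43, adjusted p = 0.0132), and *Ccl5* 6.33, 15.5, 52.1 and 92.3 in mutant and 2.76, 8.46, 13 and 7.38 in wild type (log2 fold change 2.40, standard error 0.74, adjusted p = 0.0232). Mutant libraries 3 and 4, which were high in microglia and macrophage markers, had the highest values of both chemokines, and their part in these was not tested.

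The adhesion molecules *Icam1* and *Vcam1*, which are NF-kB targets as well and were chosen with *Birc3* after their values were seen, did not pass. *Icam1* had 36956, 54346, 52126 and 45447 normalized counts in mutant and 52139.5, 64202, 37798 and 43341 in wild type, and its interval excluded a log2 difference of 1 (log2 fold change -0.064, 95% interval -0.44 to 0.31). *Vcam1* had 2196, 3876, 4007 and 4912 in mutant and 4259, 4164, 2753 and 4573 in wild type (log2 fold change -0.07, 95% interval -0.57 to 0.43). *Birc3*, an inhibitor of apoptosis induced by NF-kB, did not pass (log2 fold change 0.11, adjusted p = 0.493). Lower were *Il15* (log2 fold change -0.97, adjusted p = 0.000965), *Irf1* (log2 fold change -0.82, adjusted p = 0.00196) and *Bcl3*, which is on both lists. The list held genes of each kind, and the median of its 26 tested genes was 0.39 on the log2 scale, where that of all genes was -0.02.

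**Figure D5:**
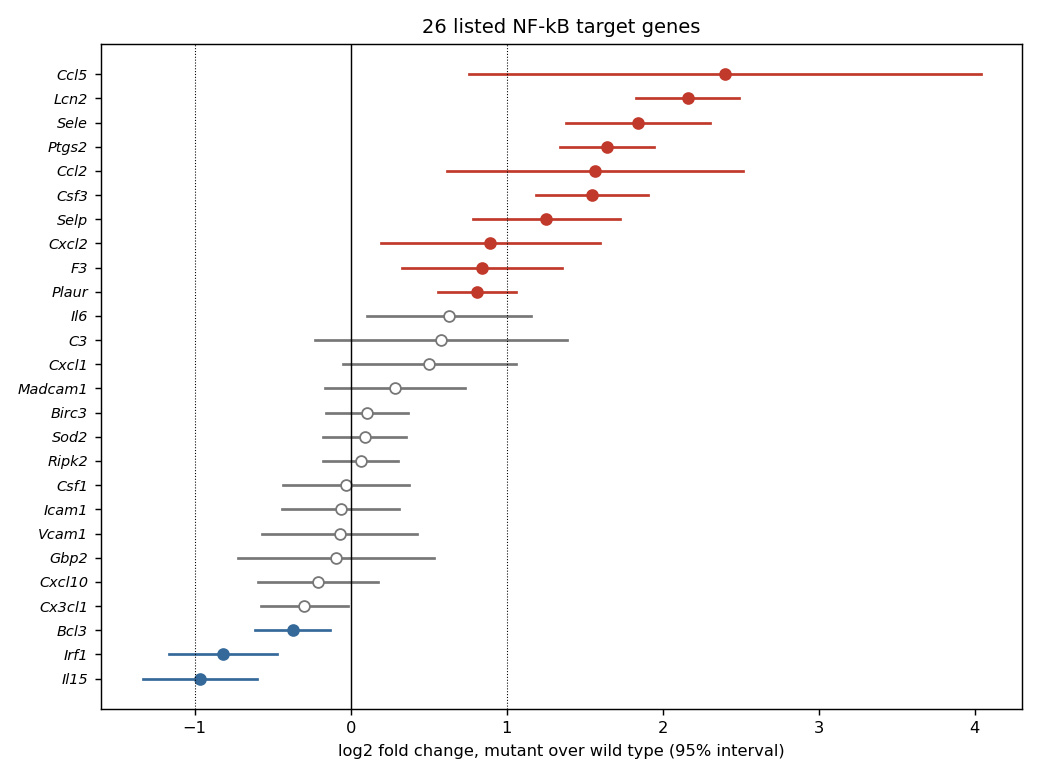
Log2 fold change, mutant over wild type, with its 95% interval for the 26 tested genes of the NF-kB target list (red, higher and passed; blue, lower and passed; open grey, did not pass; dotted lines at log2 fold changes of -1 and 1). *Ccl5*, *Lcn2*, *Sele*, *Ptgs2*, *Ccl2*, *Csf3* and *Selp* lie beyond 1, while *Icam1*, *Vcam1* and *Birc3* lie near 0.

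The direction of the members within the label prefixes was read from the same libraries that gave the calls. All 19 higher members had a positive difference within each of the 3 prefixes. Of the 11 lower members 10 had a negative difference in each, the exception being *Nfkbid*. In the 17 members wholly above and the 9 wholly below wild type, these signs followed from the lack of overlap. They are therefore no separate support for the calls. The count of lower members depended on single libraries, falling from 11 to 7 without mutant replicate 1 or 3 or wild-type replicate 1, 2 or 3 and to 5 without mutant replicate 2, whereas the count of higher members stayed between 16 and 20. Differentially expressed and lower members rose from 2 to 4 without mutant replicate 3 or wild-type replicate 1.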

How the data were processed

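RNA from brain ECs of 4 mutant and 4 wild-type pups was sequenced, 1 library per pup, so p-values measure the spread between these pups. The authors used Trimmomatic on paired reads of poly(A) RNA and the STAR aligner with GRCm38 and deposited whole-number counts per gene for each library. The counting program and its use of strand are not given in the sources used here. The authors also deposited a normalized signal for 16889 genes, the counts divided by DESeq2 size factors; multiplying back gave whole reads (within 0.001) for 100.0% of values. That table served to find the members, and its genes were an alternative filter. Of 49315 identifiers, 48970 had a symbol.

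Counts were analysed with edgeR 4.0.16 in R 4.3.3 (limma 3.58.1, Python 3.11.15). After a filterByExpr filter and TMM scaling, genotypes were compared over 16887 genes with glmQLFit and glmQLFTest, with no covariate and Benjamini-Hochberg adjustment over all genes. Normalized counts are counts scaled to the mean TMM library size, and RPKM divides them by exon length. On simulated counts for 16887 genes, all 200 genes changed 4-fold were called, with 12 unchanged genes. The changed genes were drawn only from those above the median level. The simulation therefore does not show how well genes at low counts or with smaller changes are called. Values within a label prefix are differences of mean log2 normalized counts. Promoters came from RefSeq (GRCm38.p6). Named with values in every library were, in each family, the differentially expressed members, up to 3 of smallest p and 9 founding members; from each list, the differentially expressed genes, up to 3 per direction, and *Chuk*. Most genes on other grounds are marked as chosen after their values were seen. *Tnfrsf22*, *Tnfrsf14* and the genes around the receptor cluster were also named on other grounds, without such a mark. Members and lists were chosen with earlier results of these data known. Alternatives were DESeq2 1.42.0, 2 other scalings, 3 other filters, a replicate or label prefix block, omission of each library, and, added after seeing the data, replicates 1 and 2 of each genotype alone, which share a label prefix. Same-numbered mutant and wild-type libraries deviated together with correlations of 0.203, 0.212, 0.289 and 0.032. Replicates 1 and 2 taken across numbers, which share a label prefix, gave 0.256 and 0.158. Mutant and wild-type libraries of different prefixes gave -0.357 to 0.371. The study matched wild-type to mutant pups within litters, but which libraries share a litter is not stated in the sources used here. The main fit used no pairing, and with the label prefix as a block 51% of all genes passed, against 44.4% without it.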

Additional observations from a re-analysis of the deposited data

Results flagged for a closer look

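Among 54 group values of named members (4 libraries each), 7 had a library whose gap to its nearest neighbour took up more of the group's range than Dixon's 95% limit allows. Chance alone flags about 5% of groups. *Traf1* was flagged in both groups, at 286 normalized counts in mutant replicate 4 and 91.7 in wild-type replicate 4. Mutant replicate 1 stood apart for *Tnfrsf9*, at 942 normalized counts, and mutant replicate 4 for *Tnfaip2*, at 4679. In wild type, replicate 4 stood apart for *Tnfrsf11b* (1241) and *Traf4* (877), and replicate 3 for *Tnfaip1* (7334). Leaving out each of these libraries in turn did not end the call of any of these 6 genes.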

How the results depend on the processing

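Under 457 alternative values of the 27 members with values in every library, 420 kept their direction and their side of the threshold, 30 lost the call, 5 gained it and 2 changed sign; 18 of the 27 members were the same under every alternative run, among them the 9 differentially expressed ones. The changes of sign concerned genes that did not pass, *Tnfrsf1b* without mutant replicate 4 (-0.073, in a range up to 0.25 over single omissions) and *Tnf* with replicates 1 and 2 of each genotype only (-0.47). Without a filter on low counts, 6 members were lower, with 0 lower TRAF proteins (here always counted with their interactors), 0 lower NF-kB subunits and 0 lower IKK subunits. Where only genes averaging 100 normalized counts or more were kept, 44 members were tested, with 0 higher ligands and 1 lower TRAF protein; *Tnfsf4* and *Tnfsf18* are below that limit. DESeq2 gave 1 lower TRAF protein and its size factors in edgeR 0 lower NF-kB subunits. Library totals alone gave 1 higher NF-kB subunit and 0 higher IKK subunits. With the replicate block 33 members passed, 30 of them shared with the fit without it, *Rel*, *Tnfaip8l1* and *Traf5* were gained, and 2 NF-kB subunits were lower; the label prefix block gave 32. With replicates 1 and 2 only, which share a label prefix (2 against 2 libraries), 4 members were differentially expressed and lower, and the lower calls were 2 ligands, 1 TRAF protein, 1 TNF-alpha-induced protein, 0 NF-kB subunits and 2 IkB proteins. Leaving out 1 library at a time gave 16 to 20 higher and 5 to 9 lower members, 7 to 9 higher and 2 to 4 lower differentially expressed ones, 0 to 1 lower TRAF proteins, 1 to 3 higher and 0 to 1 lower NF-kB subunits, 0 to 1 lower IkB proteins, 0 to 1 higher and 0 to 1 lower IKK subunits, 0 to 1 lower genes among the further ligands, and 3 to 5 higher and 1 to 3 lower feedback genes. Where no construction of the alternative shows it, the cause was not tested. Another scaling moved the median log2 fold change of all genes from -0.02 to between -0.079 and -0.0046. Ligands under 1 RPKM rest on few reads, and differences in them smaller than their intervals were not detectable at this depth.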
